A study of Mus musculus with 12 samples.

Results

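The Hox genes were followed across 4 mesenchymal cell populations sorted from mouse bone. The members were the 38 protein-coding Hox genes listed by symbol, matched through their Ensembl identifiers, out of 49585 genes in the deposited count table. Bulk RNA-seq had been made from 3 libraries of 2000 cells for each population, 12 libraries in all, from wild-type male C57BL/6 mice aged 8 to 10 weeks at steady state. Itga8+ MSCs were sorted as Itga8+Alcam+Sca-1-, bone-lining cells labelled as osteoblasts (Itga8-Alcam+ BLCs) as Itga8-Alcam+Sca-1-, Sca-1+ MSCs as Alcam-Sca-1+, and CD51+CD140a+ MSCs by those 2 antigens, and every population was also CD45-Ter119-CD31-. The first 3 came from collagenase-digested fragments of flushed femora, tibias and iliac bones, whereas the methods take the CD51+CD140a+ MSCs from the flushed marrow of femora and tibiae, so that bone of origin, way of isolation and population cannot be told apart in any comparison with CD51+CD140a+ MSCs. The series description instead gives femora, tibias and iliac bones for every population, and this conflict could not be settled. The labels do not say whether the libraries of a population came from separate mice, so p-values measure the spread between these samples, which may be technical.

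Hox genes encode homeodomain transcription factors that lie in 4 clusters, Hoxa to Hoxd. Within a cluster the genes are numbered by paralogue group from the 3′ to the 5′ end, and in the embryo the 3′ genes are switched on earlier and in more anterior tissue than the 5′ genes. Along the limb, genes of the 5′ paralogue groups pattern upper arm or thigh, forearm or shank, and hand or foot in turn, and adult mesenchymal cells retain much of the Hox code of the place where they arose. Hox proteins bind DNA together with cofactors of the TALE class, such as Pbx and Meis proteins.

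Library totals ranged from 17580677 to 31332475 counts, and 3 counts, the floor used below, corresponded to 0.0820 to 0.180 CPM (counts relative to the library total, scaled by TMM factors). CPM was used to compare populations gene by gene. TPM, which divides by gene length and carries no TMM factors, was used to compare genes and for sums over genes. At the RNA level the sorted antigens followed the labels in part. Itga8 reached 35.2 to 199 CPM in Itga8+ MSCs and 0.398 to 4.17 CPM in Itga8-Alcam+ BLCs, but also 53.1 to 82.9 CPM in CD51+CD140a+ MSCs, within the Itga8+ range. Alcam stayed at 1.29 to 5.82 CPM in the populations sorted as Alcam+ and at no more than 0.221 CPM in the others, and Ly6a, which encodes Sca-1, was at 610.9 to 658.7 CPM in Sca-1+ MSCs and at 35.7 CPM or less elsewhere. The RNAs of the antigens CD51 (Itgav) and CD140a (Pdgfra) did not set the CD51+CD140a+ sort apart from Sca-1+ MSCs. Itgav was at 121 to 195 CPM there and at 126 to 150.3 CPM in Sca-1+ MSCs, and Pdgfra at 682 to 867 CPM there and at 734.5 to 1019 CPM in Sca-1+ MSCs. A list of 10 osteoblast genes summed to between 70350 and 77840 TPM in Itga8-Alcam+ BLCs and to no more than 39430 TPM elsewhere. A list of 10 myeloid genes, which the CD45- gate should keep low, summed to between 7081 and 50130 TPM in Itga8+ MSCs and between 13640 and 19490 TPM in Itga8-Alcam+ BLCs. It reached no more than 6987 TPM in a Sca-1+ library and 3141 TPM in a CD51+CD140a+ library, so that both Alcam+ fractions lay above the other populations, and its part in the results was not tested.

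Of the 38 Hox genes, 22 entered the test, for which a gene had to reach 0.5 CPM in at least 1 library, here as counts over the library total without TMM factors. The other 16 included 3 with no count in any library (Hoxb8, Hoxd11 and Hoxd12), and none of the 16 exceeded 13 counts or, on that unscaled measure, 0.471 CPM in a library. All 10 Hoxa members (chr6:52162417-52260880, GRCm38) were tested, but only Hoxb2 and Hoxb7 of the 10 Hoxb members (chr11:96194316-96368256) were. The tested Hoxc genes were Hoxc4, Hoxc5, Hoxc6, Hoxc8, Hoxc9 and Hoxc10, 6 of 9 members (chr15:102921103-103036852). In the Hoxd cluster (chr2:74668310-74765142), Hoxd8, Hoxd9, Hoxd10 and Hoxd13 were tested, 4 of 9 members. Of the 22, 13 reached the filter in every population, whereas Hoxa3 and Hoxa6 did so in CD51+CD140a+ MSCs alone and Hoxd13 in Itga8+ MSCs alone. These 3 members were admitted by the population in which they were high, so their calls in its favour are not independent of the filter, and the counts below are also given without them, over the other 19 members.

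**Figure D1:**
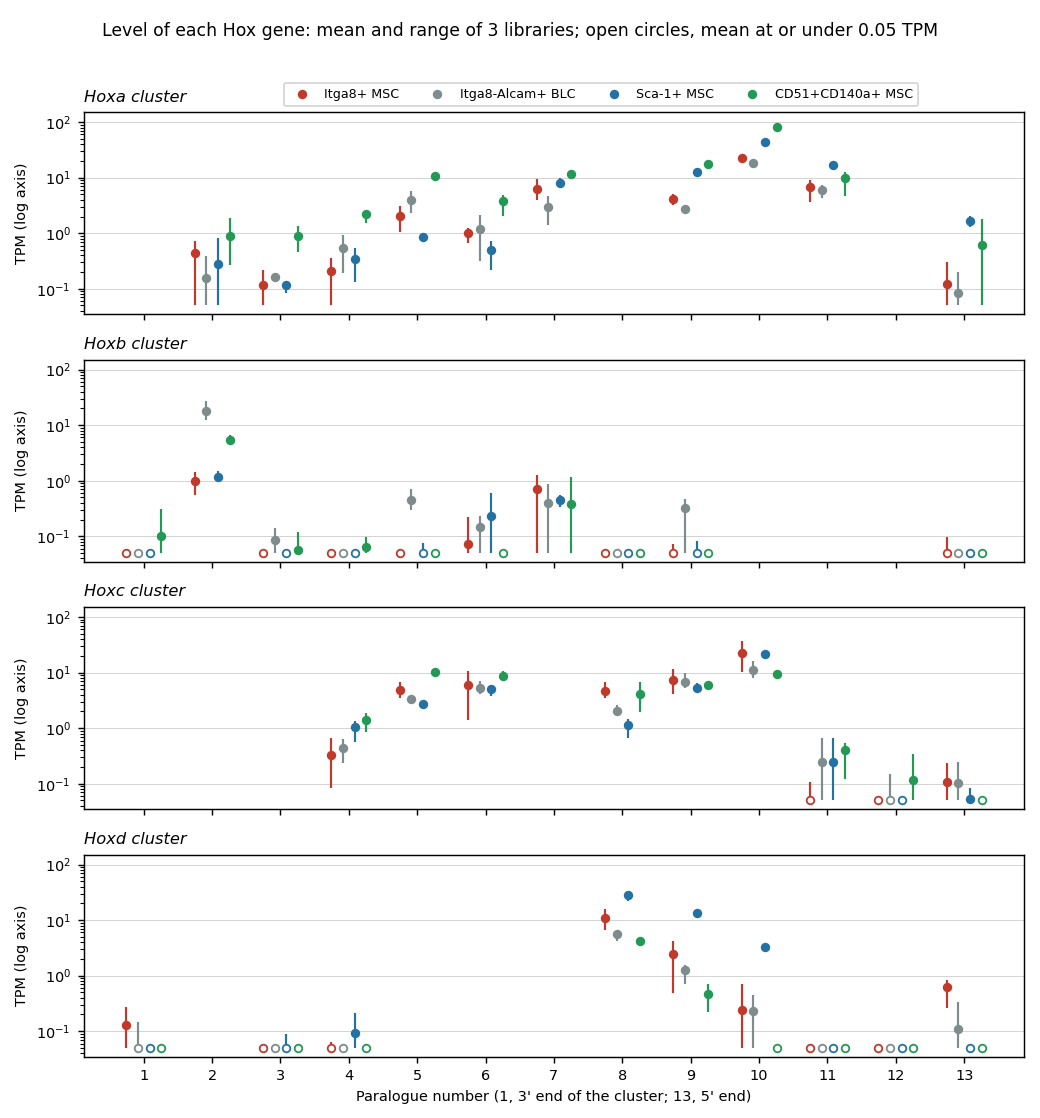
Mean TPM of every Hox gene on a log axis against its paralogue number, in a panel for each cluster, with lines from the lowest to the highest of 3 libraries (lines end at 0.05 TPM, and open circles mark means at or under 0.05 TPM). Hoxa10 has the highest mean in each population, but closely so in the Alcam+ fractions. There it is at 22.42 TPM against 22.17 TPM for Hoxc10 (Itga8+ MSCs) and 18.3 TPM against 17.8 TPM for Hoxb2 (Itga8-Alcam+ BLCs). The lines of Hoxc10 and Hoxb2 reach higher there than that of Hoxa10. Hoxd8, Hoxd9 and Hoxd10 are highest in Sca-1+ MSCs.

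The summed level of the 38 genes was 105.5 ± 16.7 TPM (SD, n = 3) in Itga8+ MSCs and 91.9 ± 9.54 TPM in Itga8-Alcam+ BLCs. It was 169 ± 12.5 TPM in Sca-1+ MSCs and 191 ± 15.6 TPM in CD51+CD140a+ MSCs. The highest library of the first 2 populations, at 122 TPM, was below the lowest of the last 2, at 160.0 TPM. The myeloid list separated the same populations in the other direction, at 7081 TPM or more in every Alcam+ library and at 6987 TPM or less in every other. None of the myeloid genes was at 0 throughout a population, and their part in the difference of the Hox sums was not tested. In bulk samples fewer cells that transcribe a gene and less RNA of it per cell cannot be told apart. By means alone, Hoxa10 was the most abundant Hox gene in every population. It averaged 22.4 TPM in Itga8+ MSCs, 18.3 TPM in Itga8-Alcam+ BLCs, 43.5 TPM in the Sca-1+ sort and 81.6 TPM in the CD51+CD140a+ sort. The gene next in abundance differed, being Hoxc10 (22.2 TPM), Hoxb2 (17.8 TPM), Hoxd8 (27.9 TPM) and Hoxa9 (17.4 TPM) in the same order of populations. In the Alcam+ fractions the order changed between libraries. Hoxc10 ranged from 10.4 to 37.2 TPM in Itga8+ MSCs, against 20.03 to 24.37 TPM for Hoxa10. Hoxb2 ranged from 12.36 to 27.59 TPM in Itga8-Alcam+ BLCs, against 17.56 to 18.98 TPM for Hoxa10. Summed by paralogue number, group 10 had the highest mean in each population. It held 42.1%, 32.3%, 40.5% and 47.8% of the summed Hox level, in the order of populations above. In Itga8-Alcam+ replicate 3, however, group 2 was at 27.97 TPM and group 10 at 27.49 TPM.

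The clusters contributed unequally. Hoxa genes held 73.0 ± 3.45% of the summed TPM in CD51+CD140a+ MSCs (SD, n = 3) and 50.2 ± 3.17% of it in Sca-1+ MSCs. In the Itga8+ MSCs their share was 42.3 ± 9.02% and in Itga8-Alcam+ BLCs it was 39.3 ± 3.66%. Hoxb genes held 20.5 ± 7.595% in Itga8-Alcam+ BLCs and no more than 3.47% in a library of the other populations. Hoxd genes held 26.6 ± 2.36% in Sca-1+ MSCs, and only 2.48 ± 0.377% of the sum came from them in CD51+CD140a+ MSCs. The summed Hoxd level was 38.3, 46.7 and 50.1 TPM in Sca-1+ MSCs and 4.29, 4.96 and 4.82 TPM in CD51+CD140a+ MSCs. It was 13.98, 9.07 and 20.3 TPM in Itga8+ MSCs and 8.49, 8.07 and 5.46 TPM in Itga8-Alcam+ BLCs, so that every Sca-1+ library exceeded every other library. The summed Hoxc level had means between 29.5 TPM in Itga8-Alcam+ BLCs and 45.6 TPM in Itga8+ MSCs. Its highest Itga8-Alcam+ library, at 36.31 TPM, lay just below the lowest CD51+CD140a+ library, at 36.38 TPM, and the other ranges overlapped. These sums describe the libraries and were given no test.

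**Figure D2:**
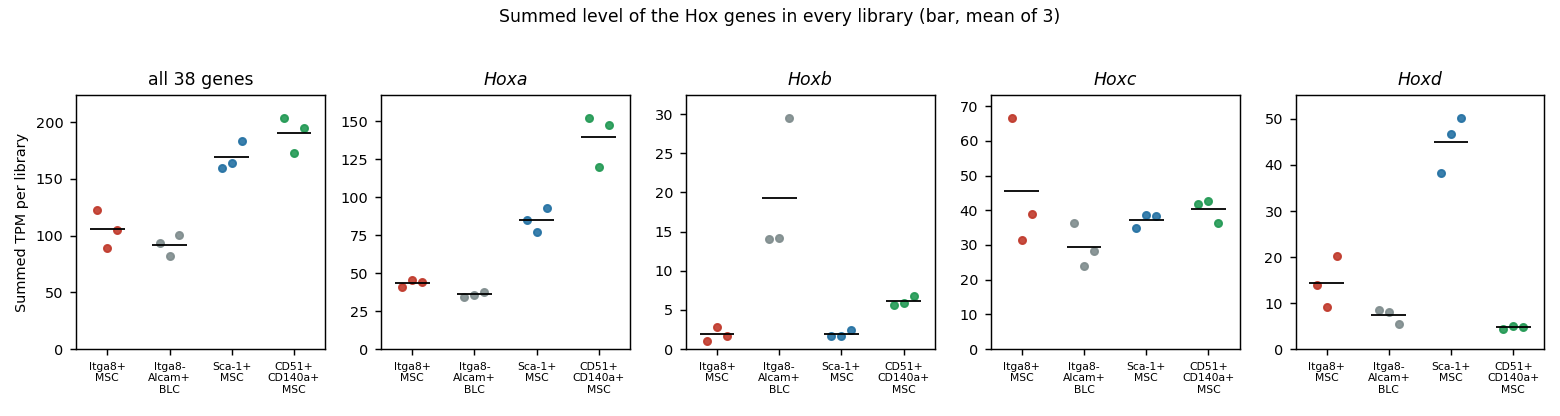
Summed TPM of all 38 Hox genes and of each cluster, with a point for each of the 12 libraries and a bar at the mean of 3. Hoxd sums of the Sca-1+ libraries lie between 38.3 and 50.1 TPM, above the other 9 libraries, and Hoxa sums of the CD51+CD140a+ libraries lie between 119.7 and 151.8 TPM.

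To ask which members differed anywhere among the populations, all 12 libraries were fitted with edgeR's quasi-likelihood model and p-values were adjusted by Benjamini-Hochberg over the 18648 genes tested. At an adjusted p under 0.1, 15 of the 22 Hox genes differed, against a background of 47.5% of all genes tested. Without Hoxa3, Hoxa6 and Hoxd13, which only 1 population admitted, 12 of 19 did (63.2%). The 15 were 7 Hoxa genes, Hoxb2, 3 Hoxc genes and the 4 tested Hoxd genes, with those 3 included. Of the 15, 7 had their highest mean in CD51+CD140a+ MSCs, 4 had it in Sca-1+ MSCs, 3 were highest in Itga8+ MSCs, and Hoxb2 alone had it in Itga8-Alcam+ BLCs.

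**Figure D3:**
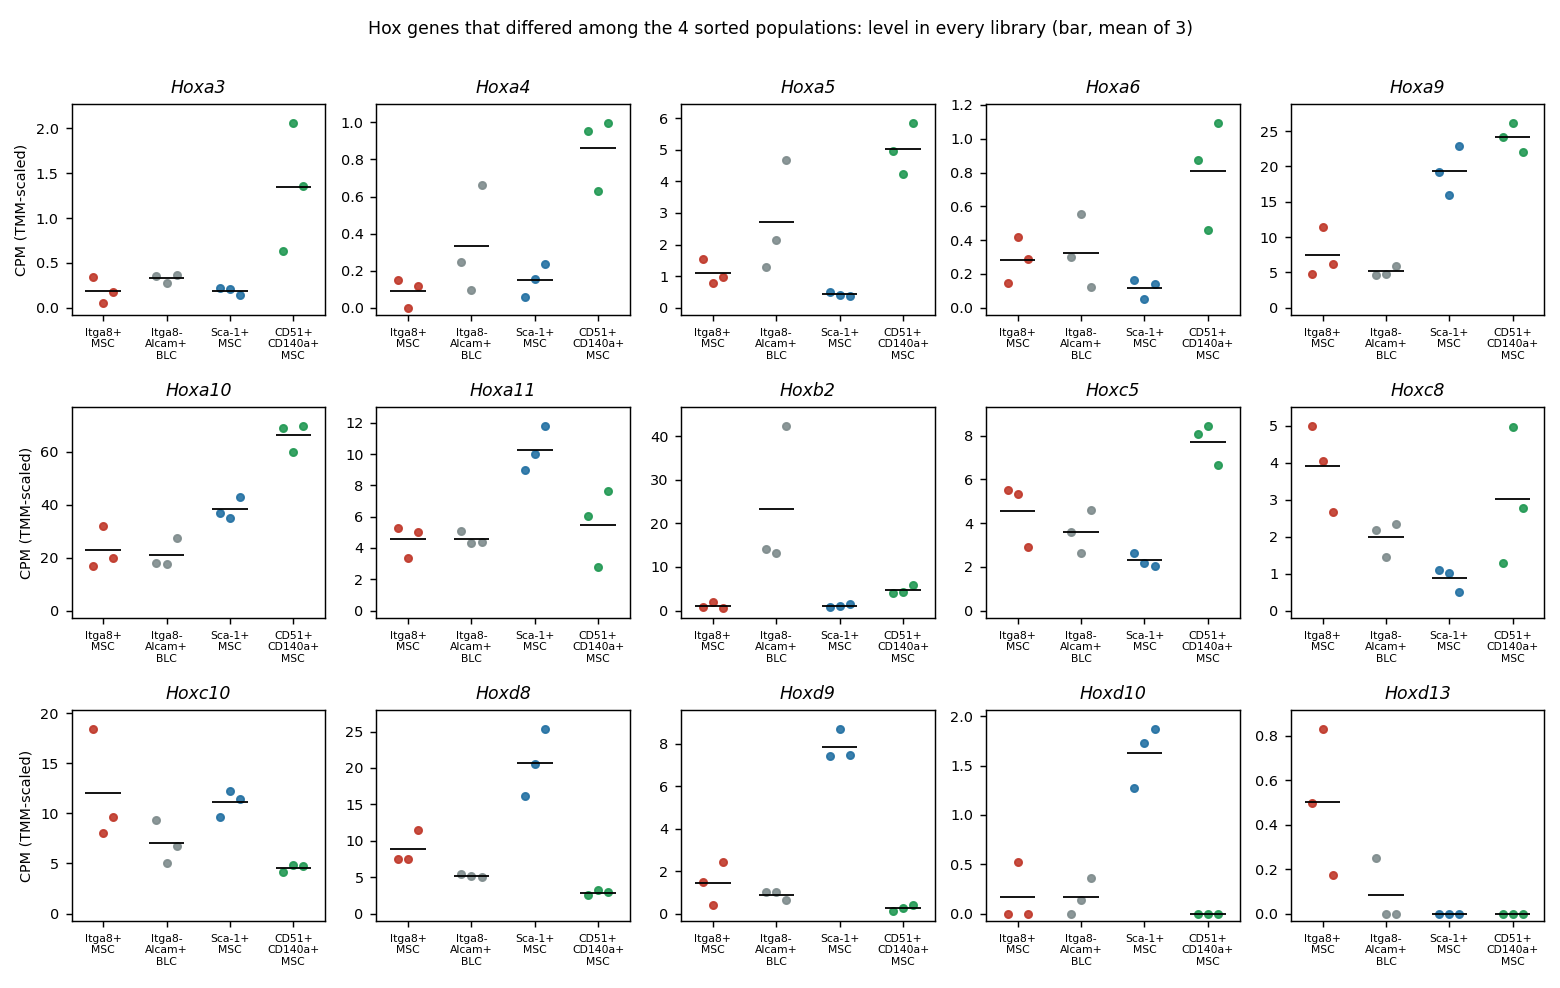
TMM-scaled CPM of the 15 Hox genes that differed among the populations, with a point for each library and a bar at the mean of 3, each panel on its own axis from 0. Hoxb2 is highest in the 3 Itga8-Alcam+ libraries (13.1 to 42.4 CPM), Hoxd9 in the 3 Sca-1+ libraries (7.41 to 8.70 CPM) and Hoxa10 in the 3 CD51+CD140a+ libraries (59.9 to 69.9 CPM).

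Pairs of populations differed in how many members were called, with a fold change above 2 required as well, and pairs that share a population share its libraries. Of the 22 Hox genes, 1 was called between Itga8+ MSCs and Itga8-Alcam+ BLCs (4.55%, against 3.82% of all genes tested). None was higher in Itga8+ MSCs (background 1.66%) and 1 was higher in Itga8-Alcam+ BLCs (background 2.16%). Between Itga8+ and Sca-1+ MSCs 6 were called (27.3%, background 21.7%), 2 higher in Itga8+ MSCs (background 12.9%) and 4 higher in Sca-1+ MSCs (background 8.89%). Itga8+ and CD51+CD140a+ MSCs differed in 11 members (50%, background 35.6%). Of these, 5 were higher in Itga8+ MSCs (background 21.2%), 4 of them Hoxd genes, and 6 were higher in CD51+CD140a+ MSCs (background 14.3%), 5 of them Hoxa genes. Without Hoxa3, Hoxa6 and Hoxd13, the counts in these 3 pairs were 1, 5 and 9 of 19 (5.26%, 26.3% and 47.4%), and in the last pair 4 were higher in Itga8+ MSCs and 5 higher in CD51+CD140a+ MSCs.

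Itga8-Alcam+ BLCs differed from Sca-1+ MSCs in 6 members (27.3%, background 26.4%), 2 of them higher in the BLCs (background 14.5%) and 4 higher in Sca-1+ MSCs (background 11.9%). They differed from CD51+CD140a+ MSCs in 8 (36.4%, background 35.3%), 3 of them higher in the BLCs (background 20.4%) and 5 higher in CD51+CD140a+ MSCs (background 14.9%). This total of 8 fell to between 3 and 5 without Itga8-Alcam+ replicate 1 or 2 or any single CD51+CD140a+ replicate. It was lowest without CD51+CD140a+ replicate 2. Between Sca-1+ and CD51+CD140a+ MSCs 10 members were called (45.5%, background 20.5%). Hoxc10, Hoxd8, Hoxd9 and Hoxd10 were the 4 higher in Sca-1+ MSCs (background 11.2%), and Hoxa3, Hoxa5, Hoxa6, Hoxb2, Hoxc5 and Hoxc8 the 6 higher in CD51+CD140a+ MSCs (background 9.3%). Without Hoxa3, Hoxa6 and Hoxd13 these last 3 pairs had 6, 7 and 8 calls among 19 members (31.6%, 36.8% and 42.1%). Libraries without overlap were found for 3 members between the Alcam+ fractions (background 14.2%), 11 between Itga8+ and Sca-1+ MSCs (37.6%) and 13 between Itga8+ and CD51+CD140a+ MSCs (44.4%). The same held for 12 members between Itga8-Alcam+ BLCs and Sca-1+ MSCs (45.7%), 10 between those BLCs and the CD51+CD140a+ sort (49.8%) and 14 between Sca-1+ and CD51+CD140a+ MSCs (45.9%).

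The median log2 difference of the 22 genes was 0.21, 0.05 and 0.09 in the 3 pairs among populations of the digested bone, in the order given, against 0.08, 0.16 and 0.12 over all genes tested. Over CD51+CD140a+ MSCs it was -0.54 for Itga8+ MSCs, -0.75 for Itga8-Alcam+ BLCs and -0.37 for Sca-1+ MSCs, against 0.18, 0.09 and -0.00 over all genes. These medians were the same with genes at the floor set to their bounds, but they depended on single libraries. The median of Itga8+ over Itga8-Alcam+ was 0.08 without Itga8-Alcam+ replicate 1, as over all genes, and 0.54 without replicate 3. Without Itga8-Alcam+ replicate 3, Sca-1+ replicate 2 or Sca-1+ replicate 3, the median of Itga8-Alcam+ over Sca-1+ turned to -0.86, -0.17 and -0.21, and without Sca-1+ replicate 1 it was 0.51. That of Itga8+ over Sca-1+ turned to -0.32 and -0.17 without Itga8+ replicate 1 or 2. Among the pairs with CD51+CD140a+ MSCs, leaving out 1 library kept the medians below 0, between -1.08 and -0.17 for Itga8+ MSCs (without Itga8+ replicate 2 and CD51+CD140a+ replicate 3), between -0.99 and -0.42 for Itga8-Alcam+ BLCs (without Itga8-Alcam+ replicate 3 and CD51+CD140a+ replicate 3) and between -0.49 and -0.33 for Sca-1+ MSCs.

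**Figure D4:**
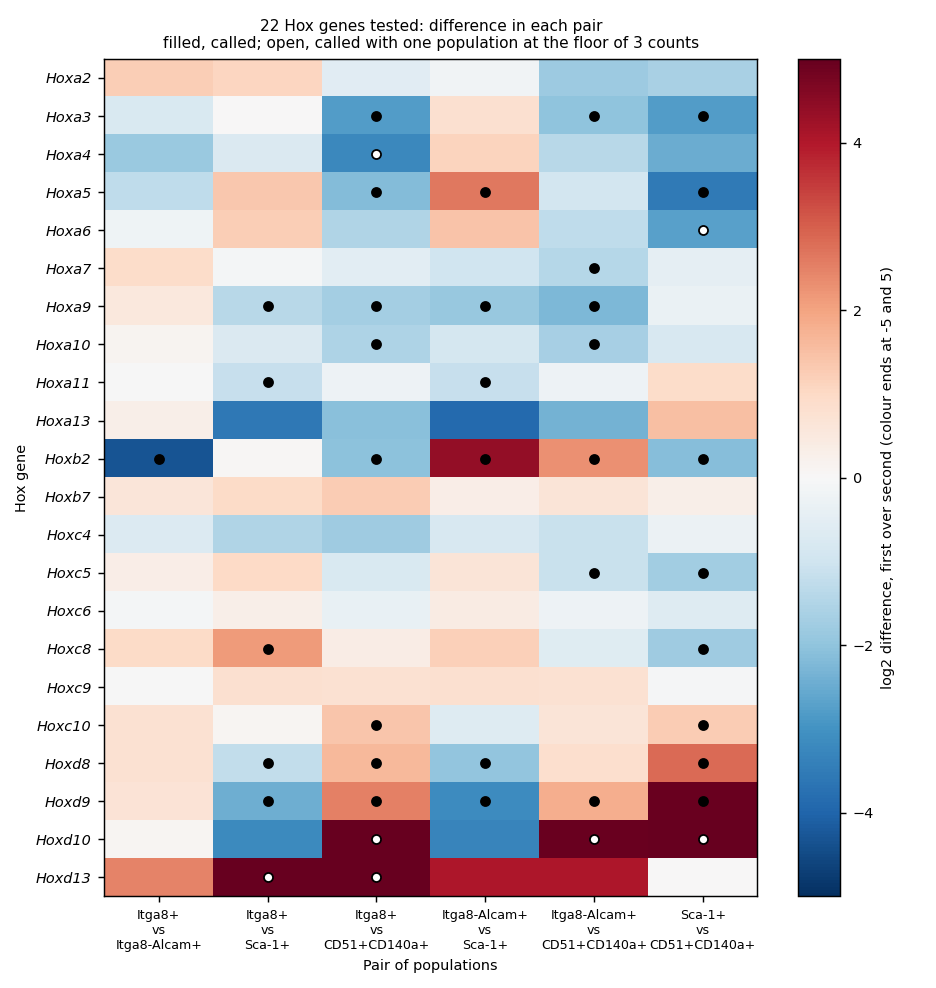
Log2 difference of the 22 tested Hox genes, in cluster order, for the 6 pairs of populations (red, higher in the first named population; blue, higher in the second). Filled circles mark calls and open circles calls with a population at the floor of 3 counts, where the colour is a fitted value and no bound. Hoxa calls against CD51+CD140a+ MSCs are blue and Hoxd calls against them are red.

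Hoxb2 (ENSMUSG00000075588, chr11:96350525-96354012, forward strand), known for patterning the hindbrain and the neural crest that leaves it, was the only Hox gene called between the Itga8+ and Itga8- fractions of Alcam+ cells. Its level was 14.1, 13.1 and 42.4 CPM in Itga8-Alcam+ BLCs and 0.891, 2.03 and 0.520 CPM in Itga8+ MSCs. It was 0.885, 0.967 and 1.41 CPM in Sca-1+ MSCs and 4.13, 4.27 and 5.93 CPM in CD51+CD140a+ MSCs. The Itga8-Alcam+ libraries were above all others, the CD51+CD140a+ libraries came next, and the Itga8+ and Sca-1+ libraries overlapped.

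Hoxb2 was 20.1-fold higher in Itga8-Alcam+ BLCs than in Itga8+ MSCs (log2 of Itga8+ over Itga8-Alcam+ -4.33, SE 0.62, adjusted p = 0.00253). It was 21.2-fold higher than in Sca-1+ MSCs (log2 4.41, SE 0.62, adjusted p = 0.000566) and 4.86-fold higher than in CD51+CD140a+ MSCs (log2 2.28, SE 0.56, adjusted p = 0.00938). Without replicate 3 of the Itga8-Alcam+ BLCs, the highest library, these differences were 11.9-fold, 12.5-fold and 2.85-fold, and each was still called (adjusted p = 0.00753, 0.00137 and 0.0502). CD51+CD140a+ MSCs exceeded Itga8+ MSCs by 4.14-fold (log2 of Itga8+ over CD51+CD140a+ -2.05, SE 0.57, adjusted p = 0.0191) and Sca-1+ MSCs by 4.37-fold (log2 of Sca-1+ over CD51+CD140a+ -2.13, SE 0.57, adjusted p = 0.0229). Without replicate 2 of the Itga8+ MSCs, the highest library of that population, the difference was 31.8-fold from Itga8-Alcam+ BLCs and 6.57-fold from CD51+CD140a+ MSCs. Over 27.3% of its exonic length Hoxb2 lies opposite the antisense RNA Hoxb3os, and the strand setting of the counting is not given in the sources used here, so reads there cannot be told apart. Hoxb3os itself was counted at 9.91, 9.92 and 35.2 CPM in Itga8-Alcam+ BLCs, no more than 2.49 CPM in Itga8+ and Sca-1+ MSCs, and 2.92, 3.07 and 4.25 CPM in CD51+CD140a+ MSCs. The osteoblast list summed to between 21110 and 39430 TPM in CD51+CD140a+ MSCs, between 3970 and 7679 TPM in Itga8+ MSCs and between 15900 and 19050 TPM in Sca-1+ MSCs. A list of 5 Schwann cell genes summed to between 186.8 and 216.2 TPM in Itga8-Alcam+ BLCs and between 124.0 and 202.3 TPM in Itga8+ MSCs. It reached no more than 20.57 TPM in a Sca-1+ library and 45.96 TPM in a CD51+CD140a+ library. Of the 5, 2 were called higher in Itga8-Alcam+ BLCs than in Itga8+ MSCs (background 2.16%). All 5 were called higher than in Sca-1+ MSCs (14.5%) and than in CD51+CD140a+ MSCs (20.4%). The part of neither list in the Hoxb2 difference was tested.

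The other Hoxb genes had few counts. Hoxb5 gave 6, 13 and 6 counts in Itga8-Alcam+ BLCs and at most 1 count in any other library. Hoxb9 gave 0, 8 and 9 counts in Itga8-Alcam+ BLCs and at most 1 count elsewhere. With TMM factors their highest libraries were at 0.6025 and 0.540 CPM, but without them neither reached the filter, so neither was tested. Hoxb7, the other tested Hoxb gene, had overlapping libraries in each pair and did not pass the test (adjusted p = 0.907).

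Hoxd8, Hoxd9 and Hoxd10 lie side by side in the middle of the Hoxd cluster and were highest together in Sca-1+ MSCs. Hoxd9 and Hoxd10 are known for patterning the proximal limb and the lumbosacral axis, and Hoxd8 is expressed in the trunk. Hoxd8 (ENSMUSG00000027102, chr2:74704615-74707933, forward strand) was at 16.1, 20.6 and 25.4 CPM in Sca-1+ MSCs and at 7.47, 7.48 and 11.5 CPM in Itga8+ MSCs. It was at 5.43, 5.19 and 5.04 CPM in Itga8-Alcam+ BLCs and at 2.57, 3.18 and 2.93 CPM in CD51+CD140a+ MSCs. The libraries of the 4 populations did not overlap. Sca-1+ MSCs exceeded CD51+CD140a+ MSCs by 7.14-fold (log2 2.84, SE 0.33, adjusted p = 7.7e-05), Itga8-Alcam+ BLCs by 3.96-fold (log2 of Itga8-Alcam+ over Sca-1+ -1.99, SE 0.32, adjusted p = 0.00116) and Itga8+ MSCs by 2.35-fold (log2 of Itga8+ over Sca-1+ -1.23, SE 0.31, adjusted p = 0.0195). Itga8+ MSCs exceeded CD51+CD140a+ MSCs by 3.04-fold (log2 1.605, SE 0.31, adjusted p = 0.00264), and the difference between the Itga8+ and Itga8- fractions did not pass the test (log2 0.76, SE 0.31, adjusted p = 0.324).

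Hoxd9 (ENSMUSG00000043342, chr2:74697727-74700208, forward strand) separated Sca-1+ from CD51+CD140a+ MSCs more widely. It was at 7.41, 8.70 and 7.45 CPM in Sca-1+ MSCs and at 0.109, 0.258 and 0.387 CPM in CD51+CD140a+ MSCs. Itga8+ MSCs gave 1.48, 0.415 and 2.43 CPM and Itga8-Alcam+ BLCs 0.996, 1.02 and 0.659 CPM. The Sca-1+ libraries lay above all others, the CD51+CD140a+ libraries below all others, and the other two populations overlapped. The log2 difference of Sca-1+ over CD51+CD140a+ MSCs was 4.95 (SE 0.68, adjusted p = 0.000294), a 30.9-fold difference. Sca-1+ MSCs exceeded Itga8-Alcam+ BLCs by 8.73-fold (log2 of Itga8-Alcam+ over Sca-1+ -3.13, SE 0.63, adjusted p = 0.00471) and Itga8+ MSCs by 5.44-fold (log2 of Itga8+ over Sca-1+ -2.44, SE 0.60, adjusted p = 0.0184), the latter 8.38-fold without replicate 3 of the Itga8+ MSCs. Itga8+ MSCs exceeded CD51+CD140a+ MSCs by 5.67-fold (log2 2.50, SE 0.64, adjusted p = 0.0121). Itga8-Alcam+ BLCs exceeded CD51+CD140a+ MSCs by 3.53-fold (log2 1.82, SE 0.64, adjusted p = 0.0480), a call that was lost without replicate 1 of the Itga8-Alcam+ BLCs (adjusted p = 0.111) and without replicate 1 or 2 of the CD51+CD140a+ MSCs (adjusted p = 0.147 and 0.103), and in the fit of these populations alone (adjusted p = 0.118).

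Hoxd10 (ENSMUSG00000050368, chr2:74691924-74695105, forward strand) gave 23, 34 and 40 counts in Sca-1+ MSCs and no count in the 3 CD51+CD140a+ libraries. It gave 0, 10 and 0 counts in Itga8+ MSCs and 0, 3 and 6 in Itga8-Alcam+ BLCs. Against the floor of 3 counts per library, Sca-1+ MSCs were at least 18.4-fold higher than CD51+CD140a+ MSCs (adjusted p = 0.0172). The calls of Itga8+ MSCs (at least 1.96-fold, adjusted p = 0.0789) and Itga8-Alcam+ BLCs (at least 1.89-fold, adjusted p = 0.0848) over CD51+CD140a+ MSCs rested on few counts with overlapping libraries. The first was lost without Itga8+ replicate 2, which held all of its counts (adjusted p = 1.0), without any single Sca-1+ or CD51+CD140a+ library (adjusted p 0.105 to 0.152) and in the fit of these populations alone (adjusted p = 0.197). The second was lost without replicate 2 or 3 of the Itga8-Alcam+ BLCs (adjusted p = 0.104 and 0.233) and without any single Sca-1+ or CD51+CD140a+ library (adjusted p 0.111 to 0.159).

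Hoxd13 (ENSMUSG00000001819, chr2:74668310-74671599), the gene at the 5′ end of the cluster that patterns hand and foot, had the opposite layout. It gave 10, 16 and 3 counts in Itga8+ MSCs, 5, 0 and 0 counts in Itga8-Alcam+ BLCs and no count in the Sca-1+ and CD51+CD140a+ libraries. Itga8+ MSCs were at least 5.67-fold higher than CD51+CD140a+ MSCs (adjusted p = 0.0383) and at least 3.27-fold higher than Sca-1+ MSCs (adjusted p = 0.0802). Hoxd13 passed the filter only through Itga8+ MSCs, and without the filter these adjusted p-values were 0.0302 and 0.0732. The latter call did not hold with DESeq2 (adjusted p = 0.117), without replicate 1 or 2 of the Itga8+ MSCs (adjusted p = 0.129 and 0.157) and without any single Sca-1+ library (adjusted p 0.165 to 0.175), and the any-difference call (adjusted p = 0.0467) was lost with DESeq2 (adjusted p = 0.101) and without Itga8+ replicate 2 (adjusted p = 0.105). Hoxd11 and Hoxd12, which lie between Hoxd10 and Hoxd13, had no count in any library, and Hoxd1, Hoxd3 and Hoxd4 at the 3′ end had at most 4 counts in a library. Since no count in a library allows up to 3 counts, low transcription of these genes was not detectable at this depth. In addition, 62.35% of the exonic length of Hoxd3 and 52.31% of that of Hoxd4 overlaps other genes on the same strand. Reads of these overlaps cannot be assigned to a single gene.

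The windows before the starts of Hoxd8, Hoxd9 and Hoxd10 are shown because these neighbours were highest in the same population. They are the 250 bases upstream of the RefSeq start (GRCm38.p6, forward strand), at chr2:74704365-74704614, chr2:74697513-74697762 and chr2:74691641-74691890, with CpG dinucleotides in capitals.
Hoxd8: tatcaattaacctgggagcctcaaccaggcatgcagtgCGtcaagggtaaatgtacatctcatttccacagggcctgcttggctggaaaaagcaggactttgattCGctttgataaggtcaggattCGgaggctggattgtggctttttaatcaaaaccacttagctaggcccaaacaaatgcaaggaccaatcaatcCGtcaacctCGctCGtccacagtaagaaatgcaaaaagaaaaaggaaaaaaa
Hoxd9: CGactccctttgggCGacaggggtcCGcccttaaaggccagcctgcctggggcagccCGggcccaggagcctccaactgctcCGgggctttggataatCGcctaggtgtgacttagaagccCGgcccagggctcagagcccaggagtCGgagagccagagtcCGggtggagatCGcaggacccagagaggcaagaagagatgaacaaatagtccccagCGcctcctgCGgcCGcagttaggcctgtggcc
Hoxd10: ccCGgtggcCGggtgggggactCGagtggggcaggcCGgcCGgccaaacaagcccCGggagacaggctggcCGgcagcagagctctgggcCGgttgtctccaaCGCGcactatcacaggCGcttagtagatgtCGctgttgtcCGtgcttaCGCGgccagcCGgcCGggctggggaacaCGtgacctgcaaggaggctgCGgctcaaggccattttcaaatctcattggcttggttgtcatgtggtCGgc
The Hoxd8 window held 6 CpGs at 44.4% GC, the Hoxd9 window 13 at 65.2% and the Hoxd10 window 20 at 65.6%. Of 32851 windows of the same length upstream of RefSeq starts, 50.4%, 31.5% and 17.9% had at least as many CpGs. RefSeq windows were available here for 22 of the 38 members, 24 windows in all, and their median was 12.5 CpGs, against 6 over all windows. The CCAAT box (CCAAT on either strand) was in 14 of the 24 (58.3%, against 33.8% of all windows), including Hoxd8 and Hoxd10. The composite Hox and Pbx motif TGATNNAT (either strand, no overlap with CCAAT required or excluded) was in 4 of the 24 (16.7%, against 7.68%), and in none of the 3 printed windows. A motif match is a description of letters in these windows only.

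Among the 5′ Hoxa genes, Hoxa9 and Hoxa10 had their highest means in CD51+CD140a+ MSCs and lower means in the Alcam+ fractions than in either other population. Hoxa10 (ENSMUSG00000000938, chr6:52231197-52240854, reverse strand), known for patterning the thigh and the lumbar axis, was at 68.9, 59.9 and 69.9 CPM in CD51+CD140a+ MSCs and at 37.1, 34.9 and 42.8 CPM in Sca-1+ MSCs. It was at 17.02, 32.1 and 19.99 CPM in Itga8+ MSCs and at 18.0, 17.5 and 27.3 CPM in Itga8-Alcam+ BLCs. The CD51+CD140a+ libraries exceeded all others, the Sca-1+ libraries came next without overlap, and the Alcam+ fractions overlapped. The log2 difference of Itga8+ over CD51+CD140a+ MSCs was -1.52 (SE 0.31, adjusted p = 0.00321), and that of Itga8-Alcam+ BLCs over CD51+CD140a+ MSCs was -1.66 (SE 0.31, adjusted p = 0.00178). Differences of Hoxa10 from Sca-1+ MSCs stayed under 2-fold and were not called (log2 -0.73 for Itga8+ and -0.87 for Itga8-Alcam+ over Sca-1+, and -0.79 for Sca-1+ over CD51+CD140a+).

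Hoxa9 (ENSMUSG00000038227, chr6:52223100-52231089, reverse strand), known both for axial patterning and for its role in blood stem cells, was at 24.1, 26.2 and 22.1 CPM in CD51+CD140a+ MSCs and at 19.2, 16.02 and 22.9 CPM in Sca-1+ MSCs. It was at 4.70, 11.4 and 6.18 CPM in Itga8+ MSCs and at 4.68, 4.82 and 5.93 CPM in Itga8-Alcam+ BLCs. The first 2 populations overlapped with each other and lay above all libraries of the Alcam+ fractions. Hoxa9 was 2.61-fold higher in Sca-1+ than in Itga8+ MSCs (log2 of Itga8+ over Sca-1+ -1.38, SE 0.35, adjusted p = 0.0201) and 3.77-fold higher than in Itga8-Alcam+ BLCs (log2 of Itga8-Alcam+ over Sca-1+ -1.91, SE 0.36, adjusted p = 0.00308). In CD51+CD140a+ MSCs it was 3.25-fold above Itga8+ MSCs (log2 of Itga8+ over CD51+CD140a+ -1.70, SE 0.35, adjusted p = 0.00377) and 4.69-fold above Itga8-Alcam+ BLCs (log2 of Itga8-Alcam+ over CD51+CD140a+ -2.23, SE 0.36, adjusted p = 0.000712). A list of 10 blood stem and progenitor cell genes summed to between 178 and 309 TPM in CD51+CD140a+ MSCs and between 83.4 and 95.6 TPM in Sca-1+ MSCs. It summed to between 80.7 and 232 TPM in the Alcam+ fractions. The myeloid list divided the populations as Hoxa9 did, in the other direction, with at least 7081 TPM in the Alcam+ libraries and at most 6987 TPM in the rest. The part of neither list in the Hoxa9 and Hoxa10 differences was tested.

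Hoxa11 (chr6:52242106-52245810), which patterns forearm and shank, was highest in Sca-1+ MSCs, at 8.96, 10.02 and 11.8 CPM. Itga8+ MSCs gave 5.29, 3.38 and 5.03 CPM, Itga8-Alcam+ BLCs 5.08, 4.31 and 4.38 CPM and CD51+CD140a+ MSCs 6.04, 2.81 and 7.63 CPM. All Sca-1+ libraries were above the other 9. The log2 difference was -1.17 for Itga8+ over Sca-1+ MSCs (SE 0.39, adjusted p = 0.0635) and -1.16 for Itga8-Alcam+ BLCs over Sca-1+ MSCs (SE 0.39, adjusted p = 0.0532). The first was lost without Itga8+ replicate 2 (adjusted p = 0.133) or Sca-1+ replicate 1, 2 or 3 (adjusted p = 0.111, 0.141 and 0.169), and the second without Itga8-Alcam+ replicate 3 (adjusted p = 0.135) or Sca-1+ replicate 2 or 3 (adjusted p = 0.116 and 0.147). The any-difference call (adjusted p = 0.0600) was lost without any single Sca-1+ library (adjusted p 0.115 to 0.204). With no filter on low counts, the any-difference call and that of Itga8+ MSCs against the Sca-1+ sort were lost as well (adjusted p = 0.117 and 0.113). Over 34.98% of its exonic length Hoxa11 lies opposite the antisense RNA Hoxa11os, and reads of the overlap cannot be told apart. Hoxa11os had its highest mean in the same population, 4.89 CPM, against 2.19 CPM in Itga8+ MSCs, 2.05 CPM in Itga8-Alcam+ BLCs and 3.39 CPM in the CD51+CD140a+ sort.

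Members of paralogue groups 9 and 10 differed in their layout across the populations. Hoxa5 and Hoxc5 of group 5 were both highest in CD51+CD140a+ and lowest in Sca-1+ MSCs by their means. The few counts of Hoxb5, also of group 5, lay mostly in Itga8-Alcam+ BLCs. Within group 10, Hoxa10 was highest in CD51+CD140a+ MSCs, Hoxd10 in Sca-1+ MSCs, and Hoxc10 was lowest in CD51+CD140a+ MSCs. Within group 9, Hoxa9 and Hoxd9 were both higher in Sca-1+ MSCs than in the Alcam+ fractions, whereas in CD51+CD140a+ MSCs Hoxa9 had its highest mean and Hoxd9 its lowest. The homeobox, the 180 bases that encode the DNA-binding domain, is closely shared within a number, and the stretches around the recognition helix of the group 10 genes are shown for that reason. Each is 60 bases from exon 2 of 2, read from GENCODE M21 transcripts (GRCm38), with the codons of the core of the recognition helix in capitals, at chr6:52232557-52232616 (reverse strand), chr15:102970965-102971024 (forward) and chr2:74694258-74694317 (forward), in the order printed.
Hoxa10: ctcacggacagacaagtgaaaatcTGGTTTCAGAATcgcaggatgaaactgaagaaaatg
Hoxc10: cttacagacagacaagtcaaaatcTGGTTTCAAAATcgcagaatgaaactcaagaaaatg
Hoxd10: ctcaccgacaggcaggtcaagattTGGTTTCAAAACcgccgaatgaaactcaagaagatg
Over the whole homeobox, Hoxa9 and Hoxd9 were 82.8% identical, Hoxa10 and Hoxc10 80.6%, Hoxa10 and Hoxd10 78.9%, and Hoxc10 and Hoxd10 82.8%. Over all 703 pairs of members, the 40 pairs of 1 paralogue number had a median identity of 80.6% and the other 663 pairs 60.6%. Long identical stretches, over which reads could be split between members, were few. Only Hoxd3 with Hoxd4 (388 bases) and Hoxc5 with Hoxc10 (168 bases) shared an unbroken run of over 60 bases in their transcripts, both pairs within a cluster.

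The more 3′ Hoxa genes were mostly highest in CD51+CD140a+ MSCs at low levels. Hoxa5 (chr6:52201754-52204587), known for its part in lung development and in the cervicothoracic axis, was at 4.97, 4.24 and 5.86 CPM in CD51+CD140a+ MSCs and at 0.498, 0.407 and 0.375 CPM in Sca-1+ MSCs. It was at 1.53, 0.779 and 0.982 CPM in Itga8+ MSCs and at 1.29, 2.13 and 4.68 CPM in Itga8-Alcam+ BLCs. The Sca-1+ libraries were below all others, and replicate 3 of the Itga8-Alcam+ BLCs reached into the range of the CD51+CD140a+ libraries. The log2 difference of Sca-1+ over CD51+CD140a+ MSCs was -3.54 (SE 0.56, adjusted p = 0.000812), an 11.7-fold difference, and that of Itga8+ over CD51+CD140a+ MSCs was -2.19 (SE 0.52, adjusted p = 0.00853). Itga8-Alcam+ BLCs exceeded Sca-1+ MSCs by 6.26-fold (log2 2.65, SE 0.55, adjusted p = 0.00587), or 3.98-fold without replicate 3 of the Itga8-Alcam+ BLCs (adjusted p = 0.0252).

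Hoxa3, Hoxa4 and Hoxa6, which act in neck and anterior trunk patterning, stayed at 0.5 CPM or less in most libraries outside CD51+CD140a+ MSCs. Hoxa3 was at 0.628, 2.06 and 1.35 CPM in CD51+CD140a+ MSCs and at most 0.360 CPM in any other library. It was 6.88-fold higher in CD51+CD140a+ than in Itga8+ MSCs (adjusted p = 0.0213), or 11.6-fold without Itga8+ replicate 1, and 7.01-fold higher than in Sca-1+ MSCs (adjusted p = 0.0294), the latter lost without Sca-1+ replicate 3 or CD51+CD140a+ replicate 2 (adjusted p = 0.103 and 0.109). Against Itga8-Alcam+ BLCs the difference was 4.06-fold (log2 of Itga8-Alcam+ over CD51+CD140a+ -2.02, SE 0.76, adjusted p = 0.0639) and was lost without any single Itga8-Alcam+ library or without CD51+CD140a+ replicate 2 or 3 (adjusted p 0.128 to 0.198). Hoxa3 passed the filter only through CD51+CD140a+ MSCs, and without the filter its calls gave adjusted p-values of 0.0353 against Itga8+ MSCs and 0.0496 against Sca-1+ MSCs, whereas that against Itga8-Alcam+ BLCs was lost (adjusted p = 0.109). The any-difference call of Hoxa3 (adjusted p = 0.0182) was lost without CD51+CD140a+ replicate 2 (adjusted p = 0.107). Antisense RNAs lie opposite 25.4% of its exonic length.

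Hoxa4 was at 0.956, 0.631 and 0.999 CPM in CD51+CD140a+ MSCs and at 0.148, 0 and 0.116 CPM in Itga8+ MSCs, at least 5.42-fold lower (adjusted p = 0.0410). Replicate 3 of the Itga8-Alcam+ BLCs, at 0.659 CPM, overlapped with the CD51+CD140a+ range. Its any-difference call (adjusted p = 0.0735) was lost without Itga8+ replicate 3, Itga8-Alcam+ replicate 1, Sca-1+ replicate 1 or 2, or any single CD51+CD140a+ library (adjusted p 0.101 to 0.180). Hoxa6 was at 0.874, 0.459 and 1.09 CPM in CD51+CD140a+ MSCs and at 0.166, 0.0509 and 0.141 CPM in Sca-1+ MSCs, at least 5.29-fold lower (adjusted p = 0.0522). That call was lost without any single Sca-1+ library or without CD51+CD140a+ replicate 1 or 3 (adjusted p 0.107 to 0.173). Hoxa6 too passed the filter only through CD51+CD140a+ MSCs, and without the filter the call from Sca-1+ MSCs had an adjusted p of 0.0931 and the any-difference call was lost (adjusted p = 0.167). The any-difference call of Hoxa6 (adjusted p = 0.0948) was lost without any single one of 8 libraries, namely Itga8+ replicates 1 and 3, Itga8-Alcam+ replicate 1, all Sca-1+ replicates and CD51+CD140a+ replicates 1 and 3 (adjusted p 0.112 to 0.266).

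Hoxa7 (chr6:52214491-52221854), a trunk gene that did not pass the any-difference test (adjusted p = 0.261), was called only between Itga8-Alcam+ BLCs (1.195, 2.41 and 5.82 CPM) and CD51+CD140a+ MSCs (7.16, 8.69 and 9.54 CPM), with a log2 difference of the first over the second of -1.43 (SE 0.60, adjusted p = 0.0889). The call was lost without Itga8-Alcam+ replicate 1 or 2 or any single Sca-1+ or CD51+CD140a+ library (adjusted p 0.111 to 0.227), and without Itga8-Alcam+ replicate 3 the difference was 4.69-fold in place of 2.70-fold. Itga8+ MSCs gave 2.92, 11.1 and 3.81 CPM, so that replicate 2 alone was above every CD51+CD140a+ library. Hoxa2 and Hoxa13 did not pass the any-difference test (adjusted p = 0.716 and 0.184). Hoxa13, which patterns hand and foot, nevertheless gave 18, 27 and 19 counts in Sca-1+ MSCs against at most 4 in the Alcam+ fractions, and 0, 0 and 36 counts in CD51+CD140a+ MSCs, where replicate 3 held every count.

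In the Hoxc cluster, called differences reached 4.43-fold (Hoxc8, Itga8+ over Sca-1+ MSCs). Hoxc10 (ENSMUSG00000022484, chr15:102966796-102971893, forward strand), which acts with Hoxa10 and Hoxd10 in thigh and lumbar patterning, was lowest in CD51+CD140a+ MSCs, at 4.18, 4.82 and 4.74 CPM. It was at 18.4, 8.00 and 9.65 CPM in Itga8+ MSCs, 9.36, 5.10 and 6.78 CPM in Itga8-Alcam+ BLCs and 9.63, 12.3 and 11.5 CPM in Sca-1+ MSCs. The 3 CD51+CD140a+ libraries lay below the other 9. The log2 difference of Itga8+ over CD51+CD140a+ MSCs was 1.39 (SE 0.38, adjusted p = 0.0161) and fell to 0.95, under the 2-fold limit, without Itga8+ replicate 1 (adjusted p = 0.0708). That of Sca-1+ over CD51+CD140a+ MSCs was 1.28 (SE 0.38, adjusted p = 0.0345) and was lost without Sca-1+ replicate 2 or CD51+CD140a+ replicate 1 (adjusted p = 0.105 and 0.116). The any-difference call (adjusted p = 0.0346) was lost without CD51+CD140a+ replicate 1 (adjusted p = 0.107).

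Hoxc8 (chr15:102990607-102994111), known for thoracic vertebrae and the motor neurons of the forelimb, was at 4.997, 4.05 and 2.66 CPM in Itga8+ MSCs and at 1.11, 1.02 and 0.515 CPM in Sca-1+ MSCs. Itga8-Alcam+ BLCs gave 2.19, 1.44 and 2.34 CPM and CD51+CD140a+ MSCs 1.28, 4.96 and 2.77 CPM. The Sca-1+ libraries were below all others, and Itga8+ MSCs exceeded them by 4.43-fold (log2 2.15, SE 0.56, adjusted p = 0.0243). The difference of Sca-1+ from CD51+CD140a+ MSCs (log2 -1.77, SE 0.56, adjusted p = 0.0475) was lost without Sca-1+ replicate 2 or 3 (adjusted p = 0.105 and 0.168) or CD51+CD140a+ replicate 2 (adjusted p = 0.205). The any-difference call (adjusted p = 0.0417) was lost without Sca-1+ replicate 3 (adjusted p = 0.127).

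Hoxc5 (chr15:102967443-103017429), expressed at the cervicothoracic level of the axis, was highest in CD51+CD140a+ MSCs, at 8.09, 8.46 and 6.64 CPM. It was at 2.66, 2.19 and 2.06 CPM in Sca-1+ MSCs, 5.49, 5.35 and 2.89 CPM in Itga8+ MSCs and 3.59, 2.64 and 4.62 CPM in Itga8-Alcam+ BLCs. The CD51+CD140a+ libraries were above the other 9. Their difference was called from Sca-1+ MSCs (log2 of Sca-1+ over CD51+CD140a+ -1.75, SE 0.38, adjusted p = 0.00660) and from Itga8-Alcam+ BLCs (log2 of Itga8-Alcam+ over CD51+CD140a+ -1.10, SE 0.37, adjusted p = 0.0427). The latter was lost without Itga8-Alcam+ replicate 2 or CD51+CD140a+ replicate 1 or 2 (adjusted p = 0.107, 0.102 and 0.103). Hoxc5 shares 5.37% of its exonic length with Hoxc10 on the same strand, so that a part of their reads cannot be assigned to either. Hoxc4, Hoxc6 and Hoxc9 did not pass the any-difference test (adjusted p = 0.262, 0.702 and 0.405), and the libraries of Hoxc9 ranged from 2.62 to 11.2 CPM within Itga8+ MSCs alone.

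Positional genes outside the Hox clusters were described from a list of 25, of which 23 were tested and 17 differed among the populations, against the 47.5% of all genes. Pitx1, which specifies the hindlimb and switches on Tbx4, was at 5.19 to 14.1 CPM in all 12 libraries and did not pass the test (adjusted p = 0.178). Tbx5, the forelimb counterpart of Tbx4, stayed at 2.18 CPM or less in every library. Tbx4, by contrast, was at 24.5, 35.1 and 30.2 CPM in Sca-1+ MSCs and at 2.40, 3.70 and 4.80 CPM in CD51+CD140a+ MSCs. It was at 5.10, 1.09 and 3.00 CPM in Itga8+ MSCs and at 1.05, 1.9 and 2.098 CPM in Itga8-Alcam+ BLCs. Every Sca-1+ library was above the other 9, with log2 differences of 3.04 over CD51+CD140a+ MSCs (SE 0.53, adjusted p = 0.00146), -3.29 for Itga8+ over Sca-1+ (SE 0.53, adjusted p = 0.00185) and -4.15 for Itga8-Alcam+ over Sca-1+ (SE 0.56, adjusted p = 0.000417).

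Of the 23 positional genes tested, 3 were called higher and 2 lower in Itga8+ MSCs than in Itga8-Alcam+ BLCs (background 1.66% and 2.16%). In pairs with Sca-1+ MSCs, Itga8+ MSCs had 5 higher and 6 lower (12.9% and 8.89%), and Itga8-Alcam+ BLCs 6 higher and 7 lower (14.5% and 11.9%). Against CD51+CD140a+ MSCs, genes of the list were also called both ways. Itga8+ MSCs had 6 of the 23 higher and 4 lower (background 21.2% and 14.3%), Itga8-Alcam+ BLCs 5 higher and 3 lower (20.4% and 14.9%), and Sca-1+ MSCs 10 higher and 4 lower (11.2% and 9.3%). Among those higher in CD51+CD140a+ MSCs were Prrx1, a limb mesenchyme gene (log2 -2.04 for Itga8+ and -1.63 for Itga8-Alcam+ over CD51+CD140a+, adjusted p = 0.000661 and 0.00257), and Dlx5, a homeobox gene of bone formation (log2 -2.14 for Itga8+ and -2.25 for Sca-1+ over CD51+CD140a+, adjusted p = 0.00250 and 0.00225). Pax1, Barx1 and Prrx2 were near 0 in that sort. Pax1, a gene of the sclerotome and the pectoral girdle, was at 36.9, 11.9 and 24.6 CPM in Itga8+ MSCs, 35.01, 46.0 and 22.8 CPM in Itga8-Alcam+ BLCs and 4.37, 8.29 and 3.19 CPM in Sca-1+ MSCs. In CD51+CD140a+ MSCs it gave 4, 0 and 1 counts. Barx1, a homeobox gene of craniofacial and joint mesenchyme, was at 40, 44.5 and 44.4 CPM in Sca-1+ MSCs, at 2.23 to 7.17 CPM in the Alcam+ fractions and at 5, 0 and 0 counts in CD51+CD140a+ MSCs. Prrx2, a relative of Prrx1, was at 28.9, 63.9 and 38.2 CPM in Itga8+ MSCs, 54.5, 60.9 and 54.5 CPM in Sca-1+ MSCs and 7.07, 5.79 and 18.2 CPM in Itga8-Alcam+ BLCs, and no more than 1.45 CPM in CD51+CD140a+ MSCs. Each of these genes was called in all 3 pairs with CD51+CD140a+ MSCs (Pax1, Barx1 and Prrx2 adjusted p of 0.00128 or less). Lists of 7 cartilage and 7 tendon genes made the same split, with cartilage sums of 12170 TPM or more in every library of the digested bone and 958 TPM or less in the CD51+CD140a+ sort, and tendon sums of 2694 TPM or more and 128 TPM or less. Their part in these differences, and in those of Hoxc10 and the Hoxd genes from CD51+CD140a+ MSCs, was not tested.

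Of 10 TALE genes, the cofactors of Hox proteins, all were tested and 6 differed among the populations, Meis2 and Pknox2 among them, against the 47.5% of all genes. In the 3 pairs with Itga8+ MSCs no TALE gene was called higher in Itga8+ MSCs (background 21.2% over CD51+CD140a+ MSCs, 12.9% over Sca-1+ MSCs and 1.66% over Itga8-Alcam+ BLCs). In the other direction 5 were called higher in CD51+CD140a+ MSCs (background 14.3%), 3 were in the pair with Sca-1+ MSCs (8.89%) and 2 in that with Itga8-Alcam+ BLCs (2.16%). For Itga8-Alcam+ BLCs the counts were 0 higher and 3 lower than in Sca-1+ MSCs (background 14.5% and 11.9%) and 1 higher, Tgif1, and 4 lower than in CD51+CD140a+ MSCs (20.4% and 14.9%). Meis2, a cofactor that marks proximal limb mesenchyme, was at 1.39, 0.364 and 2.02 CPM in Itga8+ MSCs and 0.448, 2.64 and 2.04 CPM in Itga8-Alcam+ BLCs. It was at 8.46, 10.7 and 8.43 CPM in Sca-1+ MSCs and 7.90, 17.3 and 10.5 CPM in CD51+CD140a+ MSCs. The libraries of the Alcam+ fractions did not overlap with those of the other populations, as for Hoxa9 and for the myeloid list, whose part was not tested, and the log2 difference of Itga8+ MSCs was -2.87 over Sca-1+ MSCs (SE 0.68, adjusted p = 0.0144) and -3.24 over CD51+CD140a+ MSCs (SE 0.68, adjusted p = 0.00427). Pknox2 was at 65.7, 65.9 and 62.1 CPM in CD51+CD140a+ MSCs and at no more than 19.5 CPM in any other library.

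Polycomb and Trithorax proteins, which hold Hox genes in the silent or the active state, were coded by 22 listed genes, all tested. Of these, 6 of 22 differed among the populations, Ezh1 and Kmt2a among them, against the background of 47.5%. Kmt2a, the Trithorax methyltransferase that keeps Hoxa genes active, had mean levels of 4.21 and 5.05 CPM in Itga8+ MSCs and Itga8-Alcam+ BLCs and of 13.6 and 16.9 CPM in Sca-1+ and CD51+CD140a+ MSCs. Ezh1, a Polycomb methyltransferase of resting cells, was at 24.3 and 18.2 CPM in the Alcam+ fractions and at 114 and 95.1 CPM in Sca-1+ and CD51+CD140a+ MSCs. Both were called between each Alcam+ fraction and each of the other populations (adjusted p of 0.0262 or less), the split that the myeloid list also made. Calls of the list went the other way too. Itga8+ MSCs had 1 higher and 3 lower than Sca-1+ MSCs (background 12.9% and 8.89%) and 1 higher and 5 lower than CD51+CD140a+ MSCs (21.2% and 14.3%), whereas Itga8-Alcam+ BLCs had 2 higher and 3 lower than the Sca-1+ sort (14.5% and 11.9%) and 0 higher and 4 lower than CD51+CD140a+ MSCs (20.4% and 14.9%). Ezh2, the Polycomb methyltransferase of dividing cells, was higher in both Alcam+ fractions than in Sca-1+ MSCs (log2 1.32 and 1.14, adjusted p = 0.0139 and 0.0214).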

How the data were processed

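Bulk RNA-seq libraries were made from 2000 sorted cells each with SMART-Seq v4 and Nextera XT. The authors deposited raw read counts per Ensembl gene, 1 file for each of the 12 libraries. The submitters' processing notes name FastQC 0.11.7, Trimmomatic 0.38, HISAT2 2.1.0, SAMtools 1.9, featureCounts 1.6.3 and mm10, whereas the paper's methods name TopHat, so the aligner is uncertain. The annotation release and strand setting are not given in the sources used here.

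Identifiers were paired with symbols and exon lengths from GENCODE M21 (49326 of 49585 genes had a length). Genes at 0.5 CPM or more in at least 1 library, as counts over the library total without TMM factors, numbered 18648 and were fitted together over all 12 libraries with edgeR 4.0.16 (R 4.3.3), TMM factors and the quasi-likelihood test. P-values were adjusted by Benjamini-Hochberg over all genes tested. A gene was called at an adjusted p under 0.1 and, for pairs, a fold change above 2. CPM carries TMM factors, and TPM uses union exon lengths. Where a population had at most 3 counts in each library, the fold is a bound against 3 counts per library. With 3 libraries against 3, an exact permutation test of a single value cannot go below 0.1, so none is given. Alternatives were other scalings, DESeq2 1.42.0, other filters, a replicate block, an adjusted p under 0.05, fits of 2 populations alone and leaving out each library. The fit was also run on simulated counts, whose outcome is not given here. Members named with a value in every library were those called in the any-difference test and those of highest TPM in each population, and called members were named for each pair, with full statistics for at most the 8 of highest TPM. Hoxa13, Hoxb5, Hoxb9 and the genes singled out from other lists were chosen after their values were seen. The members and lists were chosen with earlier results of these data known. 1 further protein-coding Hox gene is not analysed here.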

Additional observations from a re-analysis of the deposited data

How the results depend on the processing

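Of 42 member calls between pairs of populations, 28 were kept under every alternative run, and of 15 any-difference calls 8 were. No member result changed direction. Other scalings (RLE size factors and library totals) lost 0 pair calls, DESeq2 lost 1 and the absence of a filter 2. The filter of 10 counts in 3 libraries lost 0 of the pair calls it could test, but left Hoxd13 untested. Fits of 2 populations alone lost 2 pair calls. An adjusted p under 0.05 lost 8, with 5 in place of 8 members called between Itga8-Alcam+ BLCs and CD51+CD140a+ MSCs. In that pair, leaving out 1 library gave 3 to 8 called members, with 5 or fewer without Itga8-Alcam+ replicate 1 or 2 or any single CD51+CD140a+ replicate. The cause was not tested. Single libraries lost between 0 and 9 pair calls, and low members (Hoxa3, Hoxa4, Hoxa6, Hoxd10 and Hoxd13) rest on few counts.

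Between samples with the same replicate number, deviations from the population means correlated at r from -0.736 to 0.342. Deviations from a mean of 3 libraries cancel within a population, so these r values depend on one another. They cannot settle whether the numbers pair the samples. Across numbers, Itga8+ replicate 2 deviated together with Itga8-Alcam+ replicate 3 (r = 0.750) and Itga8+ replicate 3 with Itga8-Alcam+ replicate 2 (r = 0.780), a pattern the labels do not give. Replicate 1 of these fractions correlated at r = 0.342, which completes a match of their libraries. No block was fitted on this match, and the calls between the fractions come from the unpaired fit. With the replicate block, 14 members in place of 15 passed the any-difference test, and 1, 5, 10, 6, 6 and 9 in place of 1, 6, 11, 6, 8 and 10 were called in the 6 pairs, in the order of the report. The block ended the call of Hoxd13 between Itga8+ and Sca-1+ MSCs (edgeR quasi-likelihood test, adjusted p = 0.138). In pairs with CD51+CD140a+ MSCs it ended those of Hoxd10 for Itga8+ MSCs and Itga8-Alcam+ BLCs (adjusted p = 0.143 and 0.121). Also ended there were Hoxa3 for Itga8-Alcam+ BLCs (adjusted p = 0.119) and Hoxa6 for Sca-1+ MSCs (adjusted p = 0.112). The any-difference call lost was that of Hoxa6 (adjusted p = 0.188). The median member difference of Itga8-Alcam+ BLCs over Sca-1+ MSCs, 0.09, was -0.59 with the block and -0.84 in the fit of these populations alone. With library totals alone it was -0.18, and the median of all genes moved from 0.12 to -0.07. For Itga8+ over Sca-1+ MSCs the median was -0.12 with the block in place of 0.05. For Itga8+ MSCs over Itga8-Alcam+ BLCs it was 0.45 with library totals (0.34 over all genes) and 0.0 without a filter, in place of 0.21. For Itga8-Alcam+ BLCs over CD51+CD140a+ MSCs it was -0.27 without a filter in place of -0.75.

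Levels summed over members depend on the scale. Relative to Itga8+ MSCs, the summed level of Itga8-Alcam+ BLCs was 0.872 in TPM and 1.07 in CPM without division by length. That of Sca-1+ MSCs was 1.604 in TPM and 1.43 in TMM-scaled counts per kilobase, and that of the CD51+CD140a+ sort was 1.81 and 1.49. Without division by length, the Hoxa share was 58.7% in place of 50.2% in Sca-1+ MSCs and 77.2% in place of 73.0% in CD51+CD140a+ MSCs.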

Other observations

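Non-coding genes inside the clusters gave 20 listed entries, of which 6 were tested and 3 differed among the populations (Hoxb3os, Hoxa11os and Hoxd3os1, edgeR quasi-likelihood test), near the 47.5% of all genes tested. Hoxb3os, opposite Hoxb2 and Hoxb3, was higher in Itga8-Alcam+ BLCs than in Itga8+ MSCs (log2 of Itga8+ over Itga8-Alcam+ -4.18, adjusted p = 0.0245) and than in Sca-1+ MSCs (log2 4.53, adjusted p = 0.00427). Reads of the exons where Hoxb3os lies opposite Hoxb2, and Hoxa11os opposite Hoxa11, cannot be told apart, so these are not separate results. Of 16 protein-coding genes that flank the clusters, 12 were tested and 2 differed (Atp5g2 and Cbx5), against the same 47.5%. None of the 8 ParaHox and Evx genes reached the filter.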
